A study of Mus musculus with 3 samples.

Results

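The sites described here are the predicted N6-methyladenosine (m6A) positions that lay in the coding sequence (CDS) and in a short exon with a splice junction at either end. A site was taken when it lay, on the same strand, in the CDS of the transcript with the longest CDS of exactly 1 protein-coding gene, in an exon that was neither first nor last and was under 400 nt long. Of the 19301 listed sites, 1304 met this rule (6.76%), in 1126 exons of 886 genes. They made up 13.5% of the 9694 sites that lay in the CDS of 1 gene (95% Wilson interval 12.8 to 14.1), while 3446 lay in internal exons of 400 nt or more and 4028 in last exons. The rule used annotation only, so exon length and CDS position describe the choice of sites, while score, sequence and rate of listing do not.

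The study applied miCLIP2, a crosslinking and immunoprecipitation method that maps antibody-bound m6A to single nucleotides through reverse transcription stops and C-to-T transitions. RAW264.7 cells, a mouse macrophage cell line, were used untreated, as 3 biological replicates of 1 condition and with no control group, and poly(A)+ RNA was precipitated with a rabbit anti-m6A antibody. The deposited list pools the replicates and gives each site a score above 0.5 and up to 1 from m6Aboost, a machine learning model trained on embryonic stem cells with and without the methyltransferase Mettl3. The score rates a call and does not measure how much of the RNA is methylated. Since no counts come with the sites, the depth behind a site is unknown and neither a value per replicate nor a test over replicates could be given.

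m6A is written into nuclear mRNA by a complex of Mettl3, Mettl14 and Wtap, mostly at the motif DRACH (D is any base but C, R a purine and H any base but G, and the A is modified). Splicing deposits the exon junction complex a short way upstream of each junction, and in short internal exons every base lies close to a junction, whereas long internal exons and last exons hold stretches far from one. m6A is best known from such long exons and from the region around the stop codon, and it influences decay, translation and splicing of the mRNA through reader proteins.

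The sequences of 14 sites are shown as 29 bases of the genome (GRCm38) with the site in the middle, in the transcript's direction, with the 5 bases of the motif in capitals and the site as the third capital. The 6 sites with the highest score come first, because they give the sequence context of the best rated calls in short exons.
Hdlbp (chr1:93417207-93417235, minus strand): caagggtgccaaGGACTgtgtggaggcag
Elf4 (chrX:48416933-48416961, minus strand): ggagatgcctaaGGACTtggtggtgattg
Pan2 (chr10:128304202-128304230, plus strand): cactatcgtcatGAACTttgagggtctgg
Gnai2 (chr9:107615637-107615665, minus strand): gaacaacctgaaGGACTgtggcctcttct
Gtpbp1 (chr15:79707780-79707808, plus strand): tttgcccgccaaAAACTctttcgccacaa
Jmjd6 (chr11:116842580-116842608, minus strand): cacaggagaaatGGACTctggagcgcctc

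The next 5 are DRACH sites on the outermost base at the 5′ end of their exon (ties taken by score). They are shown because the first 2 capitals, the AG, are the last bases of the intron upstream, and the spliced mRNA has the end of the previous exon in their place.
Eif2b2 (chr12:85220083-85220111, plus strand): tgttgcctccatAGACTgcacgggcgcag
Ppp1r9b (chr11:94997980-94998008, plus strand): cttctgcctcacAGACTctgagggcttgg
Stk10 (chr11:32613448-32613476, plus strand): cgtgtcctccacAGACCgtgaggcggccc
Mdh1 (chr11:21559291-21559319, minus strand): tgtgtcccacccAGACTgtgcaacagcgt
Ptprs (chr17:56414997-56415025, minus strand): cctccctaccgcAGACAgcagaaagccta

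The last 3 come from the shortest exons that held a site, with 26 nt in Morf4l1, 33 nt in Ufm1 and 36 nt in Eftud2. They are shown because both junctions are close, and the end of each window lies in the intron downstream.
Morf4l1 (chr9:90097861-90097889, minus strand): gaaaacaaaaaaGAACAagcagaaaagta
Ufm1 (chr3:53859234-53859262, minus strand): taaatcctgcacAGACTgctggtgagtgt
Eftud2 (chr11:102867838-102867866, minus strand): atcctcttcacaGAACAagaggtaagtga

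To place the number of sites against the number of positions that could have been listed, every A in a DRACH motif was counted in the CDS of the 4896 genes with at least 1 listed site. Short internal exons held 64.5% of these DRACH A, yet 1189 of 124530 were listed, which is 0.955%. In internal exons of 400 nt or more 10.5% of 30649 were listed, in last exons 12.8% of 29073, and over the whole CDS 4.64% of 193103. The share in short internal exons was thus 0.0910 of that in long internal exons (95% interval 0.0852 to 0.0971). All intervals cover counting error only, and sites of 1 gene or exon share their reads and are not independent.

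The comparison was repeated in genes that have both kinds of exon. In 458 genes that had a listed site 3′ of the CDS and DRACH A in both kinds of internal exon, 89 of 15773 DRACH A in short exons were listed (0.564%, 0.459 to 0.694) against 1322 of 10245 in long exons (12.9%, 12.3 to 13.6). The share was higher in the long exons of 332 of these genes and in the short exons of 16, equal in 1, and 0 in both kinds of exon in 109. For the motif GGACT alone, 4.34% of 6801 positions in short internal exons were listed, against 34.3% of 1780 in long internal exons and 39.7% of 1802 in last exons.

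Within short exons the share rose with exon length. It was 0.511% in exons under 100 nt (0.428 to 0.608), 0.590% at 100 to under 150 nt, 0.732% at 150 to under 200 nt, 1.56% at 200 to under 300 nt and 5.93% at 300 to under 400 nt (5.27 to 6.67). Beyond the limit it was 11.5% at 400 to under 600 nt and 13.5% at 600 to under 1000 nt, then 8.81% in exons of 1000 nt or more. The share thus rose over the whole range up to 1000 nt, and the step at 400 nt was part of this rise. In genes with a site 3′ of the CDS the order was the same, from 0.388% under 100 nt to 6.01% at 300 to under 400 nt. GGACT positions rose from 1.78% through 2.12%, 3.95% and 6.84% to 27.6% over the same 5 length classes. Exons of 200 to under 400 nt held 600 of the 1304 sites and 19.4% of the DRACH A.

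**Figure D1:**
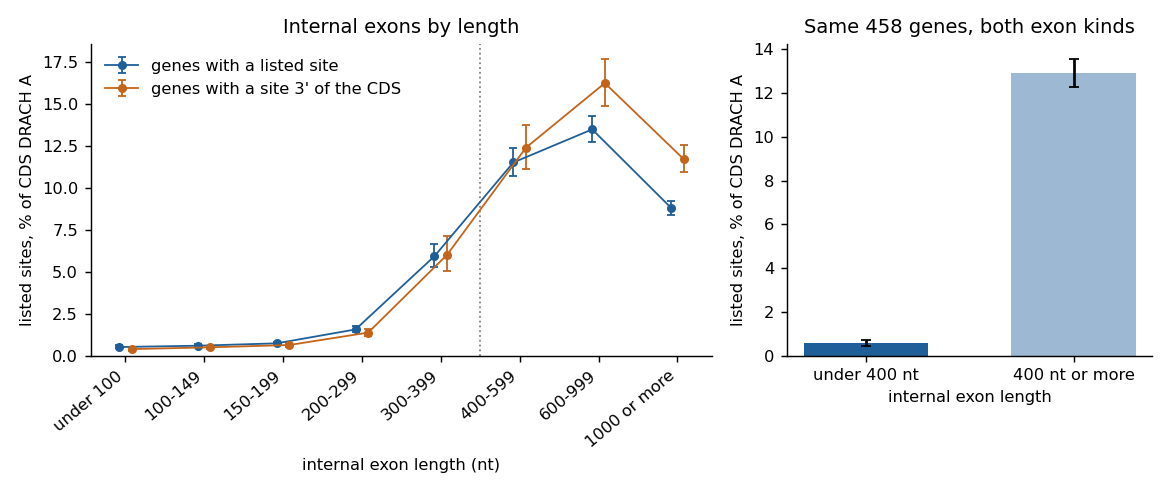
Percent of CDS DRACH A that were listed, by internal exon length (left; the dotted line marks 400 nt) and in the 458 genes with both kinds of internal exon (right), with 95% Wilson intervals as bars. The share rises from 0.511% in exons under 100 nt to 13.5% at 600 to under 1000 nt, and in the 458 genes it is 0.564% against 12.9%.

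The 3 sites in the longest exons allowed lay in exons 1 nt under the limit, in Pan2 (score 0.959), Srpk1 (0.903) and Tapbp (0.890). Pan2 is a poly(A)-trimming enzyme, Srpk1 a kinase of SR splicing factors and Tapbp the tapasin that helps load peptides on MHC class I. Just outside the limit were Casp9, an initiator caspase, with an exon of 400 nt (score 0.755), Metrn with 401 nt (0.698) and Hpcal1 with 402 nt (0.701). Within each length the sites with the highest score were taken.

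The distances to the junctions were counted as the bases between the site and the exon's end, so that the outermost base is at 0. The median site lay 92 nt from the 5′ junction and 91 nt from the 3′ junction, in an exon of 189 nt. The nearest junction was at a median of 49 nt (quartiles 23 and 85), and 645 sites were nearer to the 5′ junction, 657 nearer to the 3′ junction and 2 equally far from both. Numbers near either end were thus about equal. Under 50 nt from the nearest junction were 659 sites (50.5%, 47.8 to 53.2), beside 71.4% of all DRACH A in short internal exons. The share was 34.8% among sites with a score of at least 0.7 and 22.9% with at least 0.9. At least 100 nt from both junctions were 239 sites (18.3%), beside 3.53% of the DRACH A.

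The sites were also set against the 5439 DRACH A of the 1126 exons that held a site. Of the sites at DRACH, 584 of 1189 (49.1%, 46.3 to 52.0) lay under 50 nt from the nearest junction. Of the DRACH A, 50.8% lay there and 17.4% at least 100 nt from both, beside 19.3% of the sites at DRACH. These pooled shares mix exon lengths, since exons of 200 to under 400 nt held 56.9% of these DRACH A and 47.9% of the sites at DRACH. By exon length, median distances were taken over the sites of any motif and over the DRACH A of the same exons. They were 19 and 19 nt in exons under 100 nt and 29 and 30 nt at 100 to under 150 nt. At 150 to under 200 nt they were 43 and 42 nt. They differed in longer exons, with 74 against 63 nt at 200 to under 300 nt and 113.5 against 89 nt at 300 to under 400 nt.

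The share of DRACH A listed showed the same pattern. It was 0.632% at 0 to 24 nt from the nearest junction, 0.685% at 25 to 49 nt, 0.933% at 50 to 74 nt, 1.90% at 75 to 99 nt, 4.46% at 100 to under 150 nt and 10.7% at 150 to under 200 nt. Only exons of over 300 nt have bases in the last of these classes, so distance and length change together and were separated. In exons under 200 nt the share stayed between 0.444% and 0.992% at every distance. In exons of 300 to under 400 nt it was 0.431% within 24 nt (3 of 696), 3.29% at 25 to 49 nt, 5.88% at 50 to 74 nt, 6.88% at 75 to 99 nt, 7.80% at 100 to under 150 nt and 10.7% at 150 to under 200 nt.

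The share at a given distance was then compared between exon lengths. At 0 to 24 nt it was 0.545%, 0.653%, 0.645%, 0.871% and 0.431% from the shortest to the longest of the 5 classes, the last resting on 3 of 696, beside 1.301% in internal exons of 400 nt or more (0.835 to 2.02). At 50 to 74 nt it was 0.645% in exons of 150 to under 200 nt (0.502 to 0.827), 1.43% at 200 to under 300 nt (1.11 to 1.83) and 5.88% at 300 to under 400 nt (4.26 to 8.07), beside 5.99% in internal exons of 400 nt or more (4.90 to 7.32). A base in a shorter exon also has its other junction closer, which this comparison does not hold fixed. Long internal exons rose from 1.301% at 0 to 24 nt from a junction to 16.0% at 200 to under 300 nt and were at 7.50% at 500 nt or more. Last exons rose from 2.42% to 19.7% at 300 to under 500 nt from their 5′ junction and were at 13.9% beyond.

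**Figure D2:**
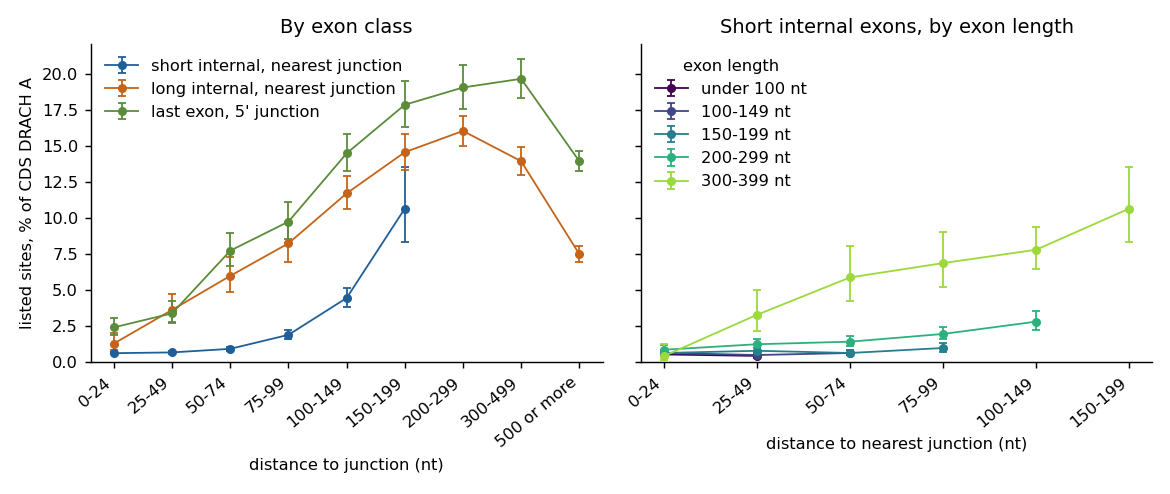
Percent of CDS DRACH A that were listed against distance to the junction, by exon class (left) and for short internal exons of 5 lengths (right), with 95% Wilson intervals. Exons of 300 to under 400 nt rise from 0.431% to 10.7% with distance, while exons under 200 nt stay below 1% throughout.

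Directly at the junctions the genomic and the spliced sequence can differ. There were 24 sites within the outermost 2 bases of an exon, and all 24 lay at the 5′ end of the exon. No DRACH A read on the genome lay in the last 2 bases of these exons, where the intron's first bases complete the motif. For DRACH sites the sequence alone thus fixes this side. Sites of any motif lay at least 3 nt from the 3′ junction. The study placed each signal on the genomic base upstream of the read's start, and the effect of this beside junctions was not tested. The base at 0 nt held 10 of them, in Eif2b2, Ppp1r9b, Stk10, Mdh1, Ptprs, Odc1, Ncl, Ctsa, Vars and Eif4g2. In these the 2 intron bases of the genomic motif are replaced in the mRNA by the end of the exon upstream. For Eif2b2, a subunit of the translation factor eIF2B, the motif was AGACT in the genome and on the spliced transcript (score 0.820). For Ppp1r9b, the scaffold protein spinophilin, it was AGACT in the genome and GGACT when spliced (0.647). Mdh1, the cytosolic malate dehydrogenase, had AGACT and CGACT (0.590), and Eif4g2, a translation factor, had AGACA and CAACA (0.502), so neither kept a DRACH motif after splicing.

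Over all A in the outermost 2 bases of short internal exons, 2768 were in DRACH both in the genome and on the spliced transcript, and 19 of these were listed (0.686%, 0.440 to 1.07). Of 319 in DRACH in the genome only, 2 were listed, Mdh1 and Eif4g2 (0.627%, 0.172 to 2.26). Of 388 in DRACH on the spliced transcript only, 0 were listed, which allows a share of up to 0.773% (3 counts). The 319 all lay at the 5′ end of the exon, since no genomic DRACH A lay in the last 2 bases. Where the intron upstream ends in AG, a spliced DRACH A at the 5′ end is DRACH in the genome too. Spliced-only bases of such exons thus lie at the 3′ end, where no site of any motif was listed. Since the last 2 kinds differ in exon end, their shares cannot tell which sequence the model read. Whether the model read the genome or the transcript next to a junction is not given in the sources used here.

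The scores of sites in short exons were lower than those elsewhere in the CDS. The median was 0.636 (quartiles 0.554 and 0.743), against 0.710 in long internal exons and 0.710 in last exons. A score of at least 0.7 was reached by 34.1% of sites in short internal exons, 52.8% in long internal and 52.6% in last exons, while 23.5%, 10.2% and 10.8% lay below 0.55. The score rose with length, with medians of 0.585 under 100 nt, 0.591 at 100 to under 150 nt, 0.614 at 150 to under 200 nt, 0.653 at 200 to under 300 nt and 0.715 at 300 to under 400 nt. Pooled over exon lengths, it rose with distance to the nearest junction, from 0.597 within 24 nt to 0.725 at 150 to under 200 nt. By length and with growing distance, the medians at DRACH were 0.588 and 0.579 in exons under 100 nt. They were 0.608, 0.595 and 0.589 at 100 to under 150 nt, and 0.587, 0.659, 0.644 and 0.615 at 150 to under 200 nt. In exons of 300 to under 400 nt they went from 0.610, over 3 sites, to 0.726. The model takes the sequence around a site, its region and its miCLIP2 signal as input, so the score is not independent of motif and signal strength.

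**Figure D3:**
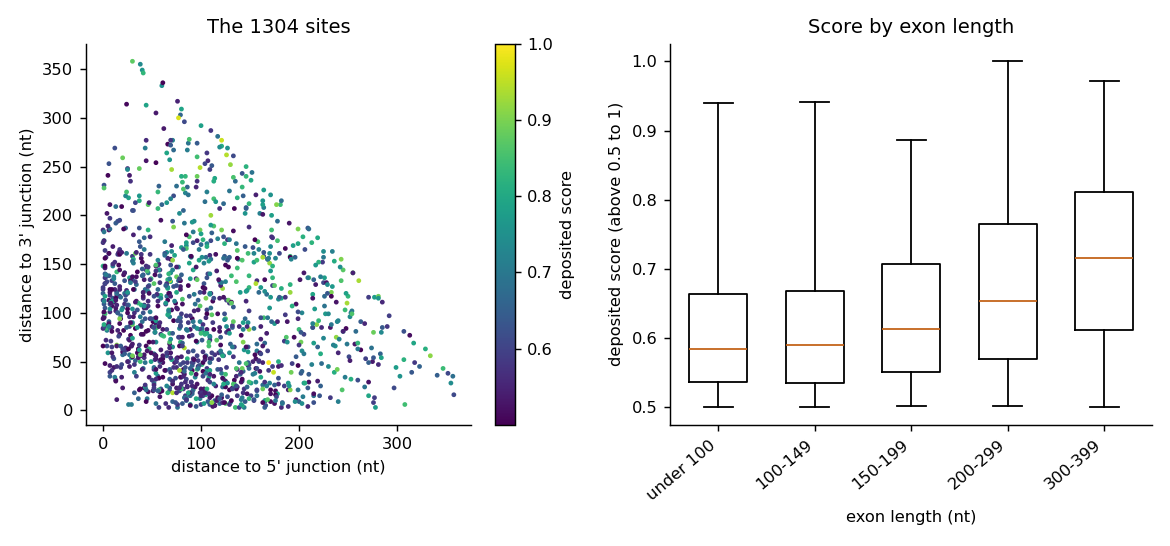
Distances of the 1304 sites to both junctions of their exon, in nt and coloured by deposited score (left), and score by exon length (right; box, quartiles; line, median; whiskers, full range). On either side of the diagonal lie 645 and 657 sites, and the median score rises from 0.585 under 100 nt to 0.715 at 300 to under 400 nt.

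A score of at least 0.9 was reached by 35 of the 1304 sites. The highest, at 1, lay in exon 19 of Hdlbp, which encodes the RNA-binding protein vigilin, in an exon of 219 nt and 49 nt from its 3′ junction. Elf4, an ETS transcription factor, followed with 0.971, then Pan2 with 0.959. Gnai2, a G protein alpha subunit, had 0.955 in its exon 8 of 9, at 39 nt from the 3′ junction. Gtpbp1, a GTP-binding protein, had 0.945, and Jmjd6, a JmjC-domain dioxygenase, 0.944. Of these 6 sites 4 were GGACT. Their exons ran from 214 nt in Gnai2 to 1 nt under the limit in Pan2.

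Exons under 100 nt held 140 sites. The exon of 26 nt in Morf4l1, a chromatin reader subunit, had a site of score 0.543, 14 nt from the 5′ and 11 nt from the 3′ junction. Ufm1, the ubiquitin-fold modifier, had one of 0.710 and Eftud2, the GTPase of the U5 snRNP, one of 0.707, each 6 nt from the 3′ junction. All 3 lay in the transcript with the longest CDS, but other annotated transcripts of these genes place the same base in a longer internal exon (Morf4l1) or in a last exon (Ufm1 and Eftud2).

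The motif was DRACH at 1189 of the 1304 sites (91.2%, 89.5 to 92.6), against 93.4% in long internal and 92.6% in last exons. GGACT was the most frequent with 295 sites (22.6%), compared with 17.7% of sites in long internal and 17.8% in last exons. GAACT followed with 175 sites, AGACT with 161, GGACA with 153, TGACT with 82 and GGACC with 75. Of the candidates in short internal exons, 4.34% were listed for GGACT, 2.48% for GAACT, 2.22% for AGACT, 1.49% for GGACA, 1.27% for TGACT and 0.905% for GGACC. The median score was 0.717 for GGACT and 0.701 for GAACT, and 0.611 for GGACC. By rate and by number the leading motif was thus the same.

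Of the 115 sites outside DRACH, 94 kept the AC at the centre of the motif, and 42 would have been DRACH but for a G as the last base. GGACG was the most frequent of these motifs with 23 sites, followed by GTACT with 19. Rps24, a ribosomal protein of the small subunit, had a GAACG site of score 0.827. By codon position, 0.844% of DRACH A at the first, 0.954% at the second and 1.10% at the third base were listed (0.981 to 1.23 for the last). The third base was also highest in long internal exons (11.8%) and last exons (14.9%).

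Along the transcript, 184 sites lay in the penultimate exon (14.1%, 12.3 to 16.1), which held 9.30% of DRACH A in short internal exons. There 1.46% of DRACH A were listed (1.26 to 1.69), against 0.903% in earlier internal exons (0.850 to 0.960). By exon length the shares were 1.03% and 0.463% under 100 nt, 0.921% and 0.624% at 100 to under 200 nt, and 3.46% and 2.24% at 200 to under 400 nt. The penultimate exon had the higher share at each length. The second exon held 201 sites, with 1.90% of its DRACH A listed. The share fell with distance to the end of the CDS, from 1.58% within 200 nt to 0.651% at 2000 nt or more, and the median site lay 858 nt from that end.

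Whether an exon is short and internal depends on the transcript. For 729 of the 1304 sites (55.9%) every annotated transcript with the base in an exon had it in an internal exon under 400 nt. Another 393 (30.1%) lay in the last exon of some other transcript, 122 in a first or only exon and 60 in a longer internal exon. DRACH A that were in a last exon of another transcript were listed at 1.54% (1.39 to 1.71), those in a longer internal exon at 1.61% (1.24 to 2.08), and those that were short internal everywhere at 0.786% (0.729 to 0.847). Among the highest scores, the Elf4, Pan2 and Gtpbp1 sites lay in the last exon of another transcript and those of Gnai2 and Jmjd6 in a first or only exon, so that of these 6 only the Hdlbp site was short internal everywhere. The rise with length and distance was present among the bases that were short internal everywhere, from 0.424% under 100 nt to 4.88% at 300 to under 400 nt and from 0.510% within 24 nt to 9.34% at 150 to under 200 nt. Of the genes described below, the sites given for Msl1, Wtap, Zc3h13, Csf1r, Brd2, Ctsa, Upf3b, Rpl12, Rps24 and Atp5b lay in the last exon of another transcript. Those of Lrp5, Tln1, Prrc2a, Golga3, Dhx38, Sf3b2, Irf5, Oas3, Cenpe and Mcm7 were short internal everywhere. Which transcripts RAW264.7 cells expressed was not measured in the list.

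Sites in short exons had fewer close neighbours, though the lower share of DRACH A listed in these exons was not held fixed. Another listed site lay within 100 nt on the spliced transcript for 323 (24.8%, 22.5 to 27.2), against 59.6% of sites in long internal and 61.7% in last exons. The transcript had no other site for 220 (16.9%), against 3.08% in long internal and 7.37% in last exons. Of the 1126 exons, 991 held 1 site, 135 held 2 or more and 35 held 3 or more. Msl1, a subunit of the MSL histone acetyltransferase complex, had 4 in its exon 3 of 383 nt, the most in any exon and tied with 7 others, with scores of 0.666, 0.921, 0.817 and 0.701 at 79, 130, 204 and 225 nt from the 5′ junction. All 4 lay at least 79 nt from either junction.

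Of 4425 genes with a listed site and a short internal coding exon, 886 had a site in such an exon (20.0%). In 626 there was 1 such site, in 171 there were 2 and in 89 there were 3 or more. Of the 886 genes, 307 had no site in any other place of the transcript and 439 also had one 3′ of the CDS. The 4425 genes had 45909 short internal coding exons with a median of 122 nt, and 2.45% of these exons held a site.

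Lrp1, a large endocytic receptor of the LDL receptor family, had the most with 14, spread over 13 of its 87 short internal coding exons. Its exons with sites were 126 to 264 nt long, the sites lay 3 to 95 nt from the nearest junction, and the scores ran from 0.562 to 0.757. Of the 16 sites of Lrp1, 14 were of this kind and 1 lay in the CDS of the last exon. Lrp5, a Wnt co-receptor of the same family, had 10 and no site elsewhere. They differed from those of Lrp1 in their clustering, since 4 lay in its exon 2 and 4 in its exon 6, both of 397 nt, and they were 47 to 187 nt from the nearest junction. The scores in exon 6 were 0.635, 0.802, 0.875 and 0.762.

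Tln1 encodes talin, which couples integrins to actin, and had 8 sites in exons of 98 to 198 nt. They lay 2 to 70 nt from a junction, with scores of 0.505 to 0.756, and 5 of the 8 were DRACH. Prrc2a, an RNA-binding protein that is reported to read m6A, had 7 beside 10 sites in its long internal exons. The 7 had scores of 0.527 to 0.744, and 4 of them shared exon 11 of 211 nt. Icam1, the adhesion ligand of leukocyte integrins, had 6 with scores of 0.717 to 0.903, beside 3 in the CDS of its last exon. Golga3, a Golgi coiled-coil protein, had 6 in exons of 264 to 369 nt, with scores from 0.610 to 0.896. Cad also had 6, with a lower mean score. Of the DRACH A in such exons, 12 of 306 were listed in Lrp1, 9 of 122 in Lrp5 and 5 of 167 in Tln1. In Prrc2a it was 7 of 67, in Icam1 6 of 35 and in Golga3 6 of 79. The order by count was thus not the order by share.

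Gene lists for functions relevant to a macrophage and to m6A were described by their counts, without a test. Over all genes, 20.0% of those with a site and a short internal coding exon had a site in one, and 0.955% of DRACH A in such exons were listed. For each list, the genes with such a site are given first, and in brackets the percent of DRACH A listed with its 95% Wilson interval. In the chromatin, cytoskeletal, cell cycle and DNA damage lists the share of genes lay above that of all genes and the share of DRACH A below. The number of DRACH A per gene differed between lists and was not held fixed. Genes of the splicing machinery had sites in 15 of 32 (1.75%, 1.14 to 2.69). Dhx38 and Sf3b2, a helicase and an SF3b subunit of the spliceosome, had 4 each. The 4 of Sf3b2 lay in exons of 81 to 97 nt and 9 to 35 nt from a junction, with scores of 0.511 to 0.661, while 3 of the 4 of Dhx38 lay in exon 2 of 340 nt. The exon junction complex and nonsense-mediated decay list had 2 of 12 (0.314%, 0.0861 to 1.14), Acin1, a splicing-dependent component, with 0.699 and Upf3b, a decay factor that binds the complex, with 0.526.

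Of the list of m6A writers, erasers and readers, 2 of 9 genes had sites (1.48%, 0.504 to 4.25). Prrc2a, with its 7 sites at DRACH among 67 DRACH A, was not in this list, and the share would be higher with it. Wtap, the adaptor of the methyltransferase complex, had a GAACT site of score 0.849 in exon 6 of 179 nt, 29 nt from the 3′ junction. Zc3h13, another subunit, had 2 in exon 9 of 308 nt, with 0.725 and 0.693.

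Macrophage lineage and surface genes had sites in 6 of 15 (2.71%, 1.76 to 4.14), with 14 of the 23 sites in Lrp1. Csf1r, the receptor of macrophage colony-stimulating factor, had 3, with scores of 0.765 and 0.729 in exon 2 and 0.892 in exon 3, and Itgb2, the beta 2 integrin, had 3 as well. Interferon and antiviral genes had sites in 8 of 23 (0.978%, 0.532 to 1.79), among them Irf5, a transcription factor of the interferon response, with 0.806 and 0.755 in exon 7 of 393 nt. Oas3, an antiviral oligoadenylate synthetase, had 0.531 and 0.814. Toll-like receptor and NF-kB genes had sites in 2 of 19 (0.593%, 0.202 to 1.73), which were Nfkb1, a subunit of NF-kB, with 2 and the kinase Ikbkb with 1, all below 0.58. Lysosome and phagosome genes had 8 of 22 (0.990%, 0.503 to 1.94), led by Ctsa, a lysosomal protective protein, with 3.

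Cytoskeletal linkers, motors and scaffolds had sites in 12 of 23 genes (0.673%, 0.436 to 1.04), led by Tln1, with 3 each in Flna, an actin crosslinker, and Sptan1, a spectrin. Chromatin genes had 14 of 38 (0.563%, 0.352 to 0.9003), among them Brd2, which binds acetylated histones, with 2 sites. The cell cycle list had 6 of 18 (0.873%, 0.475 to 1.60), led within this list by the kinesin Cenpe with 4, followed by Espl1, the separase, with 2. DNA damage and replication genes had 5 of 15 (0.501%, 0.230 to 1.09), with 2 sites in the helicase subunit Mcm7 and 1 in Trp53bp1, a factor of double-strand break repair.

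The highest shares among genes with a site were those of cytosolic ribosomal proteins, with 15 of 24 genes (7.18% of 209 DRACH A, 4.40 to 11.5), and of respiratory chain and ATP synthase subunits, with 10 of 24 (5.34% of 206, 3.01 to 9.31). With the S6 kinases and pseudogene names that the ribosomal name pattern first caught, its share was 4.01% (2.48 to 6.41), below that of the respiratory chain list, and over all its genes 1.63%. Rpl12 had 3 sites in its exon 3 of 99 nt, with scores of 0.525, 0.536 and 0.710, Rps24 had 2 with 0.650 and 0.827, and Atp5b, the beta subunit of ATP synthase, had 2 with the higher at 0.805. A gene enters these shares by having a listed site, which can be the very site counted, and each of these lists held under 10 DRACH A per gene in such exons. Over all genes of the lists, with or without a site, the shares were 2.45% for ribosomal proteins and 1.67% for respiratory chain subunits, beside 0.266% for all protein-coding genes. Of the 6 lists below 0.955% among genes with a site, 4 lay above 0.266% on this other background. They were the cytoskeletal (0.556%), cell cycle (0.454%), chromatin (0.444%) and Toll-like receptor and NF-kB (0.389%) lists, so their direction depends on the background. Transcript abundance is not in the list, and its part in these shares was not tested. Ribosomal protein genes have many near-identical copies in the genome, and the study kept reads that mapped to 1 place only. The effect of this on their sites was not tested.

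**Figure D4:**
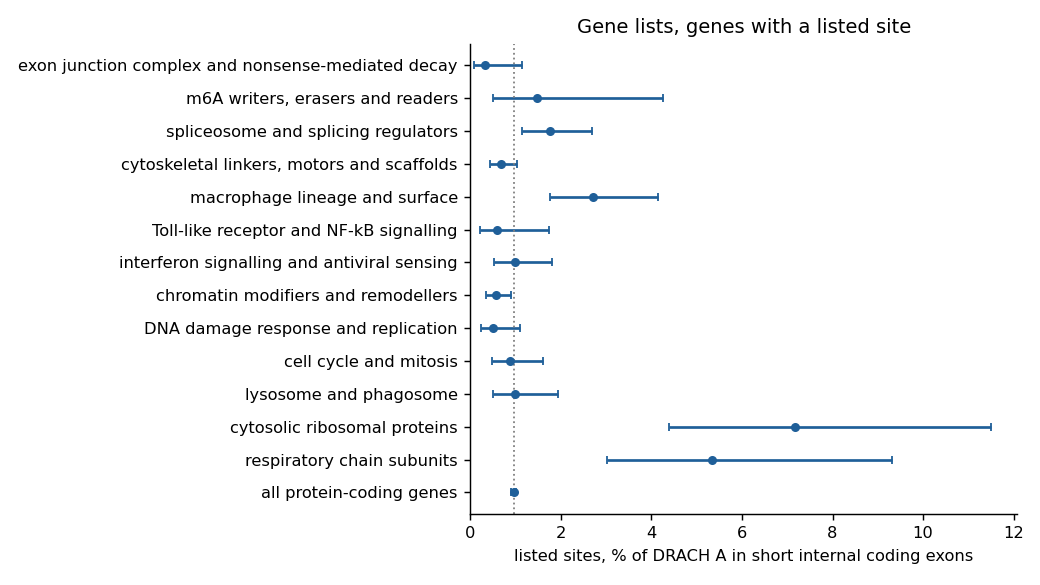
Percent of DRACH A in short internal coding exons that were listed, for 13 gene lists and for all protein-coding genes (dotted line), in genes with a listed site, with 95% Wilson intervals. Ribosomal proteins (7.18%) and respiratory chain subunits (5.34%) lie to the right of the 0.955% of all genes.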

How the data were processed

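miCLIP2 sites of untreated RAW264.7 cells (3 replicates of 1 condition, grouped by title) were taken from the list the authors deposited, whose only measurement is the m6Aboost score of each site. As described by the study, reads were mapped to GRCm38, duplicates removed, reads with C-to-T transitions set apart, peaks called per replicate and kept if found in at least 2, and peaks at A scored. The submitters' processing notes name STAR 2.7.3a, SAMtools 1.9, UMI-tools 1.0.0 and bedtools 2.27.1. Pooling means that no replicate can be left out, and peak calling needs reads, so a base of a weakly expressed transcript can be missing from the list.

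Sites were placed on GENCODE M21 (the study used M23 of the same build), positions are 1-based, and 112 sites in the CDS of more than 1 gene were left out. All 19299 sites that could be read in the genome were at A. Motifs are 5 genomic bases. The CDS excludes the stop codon. DRACH A of genes with a listed site are the background, and no filter on score was set. Shares carry 95% Wilson intervals (Python 3.11.15, NumPy 2.4.6, SciPy 1.17.1, pandas 2.3.3). The placement was tested on simulated data, where 2000 of 2000 positions were read back.

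Named were the 6 genes with most sites and the exon with most (ties: higher mean score), the 6 highest scores, the 5 DRACH sites closest to a junction, the 3 shortest exons, 3 sites on either side of the limit, and the 2 genes with most sites of each of 13 lists, of which some are not reported here; Odc1, Ncl, Ctsa, Vars, Eif4g2, Itgb2, Sptan1 and Cad were named after their values were seen. The sites and lists were chosen with earlier results of these data known. S6 kinases and pseudogene names that a name pattern had caught were taken out of the ribosomal list after its values were seen; with them 16 of 30 genes had sites and 4.01% of DRACH A were listed. Sequences are from the GRCm38 RefSeq assembly. Alternatives covered the minimum score, the length limit, the transcript choice, the background and the merging of close sites.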

Additional observations from a re-analysis of the deposited data

How the results depend on the processing

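The share of DRACH A listed was lower in short than in long internal exons in each setting for which the ratio was computed (0.0437 to 0.127). It was not computed for sites short and internal in every transcript or in the span of 1 gene. With a minimum score of 0.7 there were 445 sites, 9.21% of CDS sites, with 0.429% of DRACH A listed, a ratio of 0.0657, 34.8% under 50 nt from a junction, a median score of 0.789, 98.2% at DRACH and 17.3% in the penultimate exon. With 0.9 the values were 35 sites, 8.97%, 0.110%, 0.0643, 22.9%, 0.923, 97.1% and 28.6%. A limit of 200 nt left 704 sites, 7.26% of CDS sites, 0.617% listed, 76.1% under 50 nt, a median score of 0.593 and 88.1% at DRACH. A limit of 300 nt gave 10.6%, 0.773%, a ratio of 0.0779, 61.4% under 50 nt and 0.615, and 500 nt gave 17.1%, 1.19%, 0.113, 40.8% and 0.649. Sites short and internal in every transcript numbered 729, 7.52% of CDS sites, with 11.5% in the penultimate exon. The share and ratio were 0.795% and 0.0614 over genes with a site 3′ of the CDS, 0.266% and 0.0745 over all protein-coding genes, and the share of any A was 0.0842%. Chosen after seeing the data, GGACT gave 4.34% and 0.127, and the 458 genes with both kinds of exon 0.564% and 0.0437. The transcript support filter gave 14.7% of CDS sites and 1.03% listed. Shares of sites near a junction follow the length limit by construction, and the cause of the other changes was not tested here. No paired analysis was possible because all replicates were merged into 1 list. Depth per site is unknown, so unlisted bases cannot be called unmethylated.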
